A study of Mus musculus with 16 samples.

Results

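The miR-130/miR-301 family is a set of microRNAs (miRNAs) that share a seed, the bases near the 5′ end through which a miRNA pairs with its target mRNAs. Its levels were examined in the wall of the lateral ventricle (LV) of WT and Dgcr8+/- mice. The 5 members, mmu-miR-130a-3p, mmu-miR-130b-3p, mmu-miR-130b-5p, mmu-miR-301a-3p and mmu-miR-301b-3p, were selected by name from the 1881 mouse miRNAs on the array. The family was chosen because miR-130b-3p had one of the strongest reductions among all miRNAs in these same arrays. The genotype differences of the members are therefore a description, and so are the calls that the fit over all miRNAs made for them, which support nothing here. Of the 5 members, 4 were among the 495 miRNAs that were detected on at least 8 of the 16 arrays and could be compared. MiR-130b-5p was not.

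The study compared 8 Dgcr8+/- mice, a constitutive line heterozygous for Dgcr8 and back-crossed to C57BL/6J, with 8 WT littermates. All mice were males at 8 months of age, and each array held the RNA of 1 mouse. The LV wall is a mixed tissue that holds ciliated ependymal cells along with neurons, glia and vessels, so that fewer cells of a type and less RNA per cell cannot be told apart. The arrays measure miRNAs only, and the Dgcr8 mRNA was not measured here.

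Dgcr8 is the RNA-binding partner of the nuclease Drosha, and together they cut the hairpin out of the primary miRNA transcript. Dicer then releases a duplex, of which either arm (5p or 3p) can be loaded into Argonaute. The miR-130/miR-301 family is known from vascular tissue, where its members repress Pparg, a nuclear receptor gene.

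The mature sequences are shown because they define the family and show how alike the members are. Sequences are from RefSeq, mouse build GRCm38.p6, written 5′ to 3′ with the seed, bases 2 to 8, in capitals.
miR-130a-3p: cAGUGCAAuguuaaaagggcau
miR-130b-3p: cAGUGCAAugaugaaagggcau
miR-301a-3p: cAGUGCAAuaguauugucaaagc
miR-130b-5p: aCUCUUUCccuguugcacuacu
The 3p sequences shown have 1 seed, AGUGCAA, whereas the 5p arm of miR-130b has another, CUCUUUC. MiR-130a-3p and miR-130b-3p were the same at 20 of 22 bases. Counted from 1 at the 5′ end, with the base of miR-130a-3p first, they differed by U11A and A13G. MiR-301a-3p was the same as miR-130a-3p at 12 of the 22 bases compared and as miR-130b-3p at 11, with the first difference at base 10 in both cases.

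The members come from 3 loci. MiR-130a-3p lies on the minus strand at chr2:84741116-84741137, and its gene Mir130a is next to Ypel4. MiR-301a-3p lies on the plus strand at chr11:87113054-87113076, inside the span of Ska2. MiR-130b-3p at chr16:17124071-17124092 and miR-130b-5p at chr16:17124109-17124130 lie on the minus strand inside the span of 2610318N02Rik. This span also holds Mir301b, which is the nearest annotated gene to Mir130b. The facing ends of their annotated 5p arms differ by 326 in chromosome coordinates. Chromosome 16 also carries Dgcr8, and 56 annotated genes, 38 of them protein-coding, lie between Mir130b and Dgcr8.

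MiR-130b-3p and miR-301b-3p, the pair on chromosome 16, had lower signals in Dgcr8+/- mice, although miR-301b-3p was detected on 2 of the 8 Dgcr8+/- arrays, whereas miR-130a-3p and miR-301a-3p differed by 0.12 or less on the log2 scale. Values are quantile-normalized array signals on the log2 scale, and each difference is Dgcr8+/- minus WT. In limma with Benjamini-Hochberg adjustment over all 495 miRNAs, 27.9% of miRNAs were lower and 28.3% were higher at an adjusted p below 0.05. Of the 4 members compared, 2 were called lower (miR-130b-3p and miR-301b-3p) and 1 was called higher (miR-301a-3p). The members were chosen from this contrast, so nothing is read from these counts. Over all 495 miRNAs the median difference was 0.04, with quartiles of -0.27 and 0.27, and the median SD within a genotype was 0.18.

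MiR-130b-3p had the largest difference of the family. In WT mice 1 to 8 its signal was 4.84, 4.88, 5.01, 5.20, 4.85, 4.81, 5.05 and 4.92. In Dgcr8+/- mice 1 to 8 it was 3.75, 3.21, 4.13, 4.33, 4.10, 4.24, 4.51 and 4.13. Every Dgcr8+/- value was below every WT value. The family was chosen for this reduction, and full separation was not counted over all miRNAs, so nothing is read from it. The lowest value came from Dgcr8+/- replicate 2, the only one of the 16 arrays on which miR-130b-3p was not detected. The means were 4.95 ± 0.13 (SD, n = 8) in WT and 4.05 ± 0.40 (SD, n = 8) in Dgcr8+/- mice. The difference was -0.89 (SE 0.14, 95% interval -1.19 to -0.60), which places the Dgcr8+/- signal at 53.8% of WT. Without Dgcr8+/- replicate 2 the difference was -0.78. On the linear scale the median signal was 29.9 units in WT and 17.6 units in Dgcr8+/- mice.

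Among the 495 miRNAs, miR-130b-3p ranked 6 from the lowest difference. The miRNA just below it was miR-106b-3p at -1.03, which was detected on 8 WT and 3 Dgcr8+/- arrays, and the one just above was miR-374c-5p at -0.86. The 82 miRNAs whose mean signal was within 0.5 of its own, a window chosen after the values were seen, had a median difference of 0.14 with quartiles of -0.14 and 0.30. None of these 82 had a difference as low as that of miR-130b-3p. The family was chosen for that low difference, so nothing is read from its rank or from this window.

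MiR-301b-3p, the neighbour of miR-130b-3p, was dim in both genotypes. In WT mice 1 to 8 its signal was 2.32, 2.71, 2.53, 2.96, 2.57, 2.17, 2.76 and 2.64. In Dgcr8+/- mice 1 to 8 it was 0.98, 1.56, 2.35, 2.11, 2.40, 1.76, 2.29 and 2.23. Of the Dgcr8+/- values, 4 were below every WT value and 4 lay within the WT range, so the groups overlapped. The means were 2.58 ± 0.25 (SD, n = 8) and 1.96 ± 0.49 (SD, n = 8), a difference of -0.62 (SE 0.18). MiR-301b-3p was detected on 8 of 8 WT arrays but on 2 of 8 Dgcr8+/- arrays, replicates 5 and 8, so the 8 WT arrays alone met the detection filter, and the Dgcr8+/- mean and the difference rest mostly on signals not above background. Among the 9 other miRNAs within 0.5 of its mean signal, the median difference was -0.11, and 1 had a difference at least as low.

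MiR-130a-3p, the closer of the 2 other 3p sequences printed to miR-130b-3p, was detected on all 16 arrays. In WT mice 1 to 8 its signal was 8.44, 8.44, 8.49, 8.40, 8.53, 8.42, 8.44 and 8.39. In Dgcr8+/- mice 1 to 8 it was 8.54, 8.43, 8.62, 8.55, 8.48, 8.50, 8.50 and 8.40. The groups overlapped, with 5 Dgcr8+/- values inside the WT range and 3 above it. The means were 8.44 ± 0.05 (SD, n = 8) and 8.50 ± 0.07 (SD, n = 8), a difference of 0.06 (SE 0.04, 95% interval -0.02 to 0.14).

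MiR-301a-3p was slightly brighter in Dgcr8+/- mice and was also detected on all 16 arrays. In WT mice 1 to 8 its signal was 8.41, 8.45, 8.45, 8.53, 8.58, 8.53, 8.45 and 8.50. In Dgcr8+/- mice 1 to 8 it was 8.58, 8.39, 8.65, 8.65, 8.63, 8.70, 8.59 and 8.71. Of the Dgcr8+/- values, 6 were above every WT value, 1 lay within the WT range, and replicate 2 was below every WT value. The means were 8.49 ± 0.06 (SD, n = 8) and 8.61 ± 0.10 (SD, n = 8), a difference of 0.12 (SE 0.05, 95% interval 0.03 to 0.22) or 109% of WT. The call of miR-301a-3p rested on the processing. It was kept in 8 of the 16 fits that left out 1 array and in 7 of 14 other alternatives, and was lost, among others, with the slide as a block. In 1 of these 14, without normalization between arrays, miR-301a-3p was called lower.

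MiR-130b-5p, the opposite arm of the miR-130b hairpin, was detected on 1 WT array (replicate 7) and on no Dgcr8+/- array, so no fold is given. The WT signal had a median of 2.42 (lowest 2.14, highest 2.75), and the Dgcr8+/- signal a median of 1.96 (lowest 1.54, highest 2.37). Of the Dgcr8+/- values, 5 were below every WT value. Both groups thus lay at a level where the software did not separate the signal from background on 15 of the 16 arrays.

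**Figure D1:**
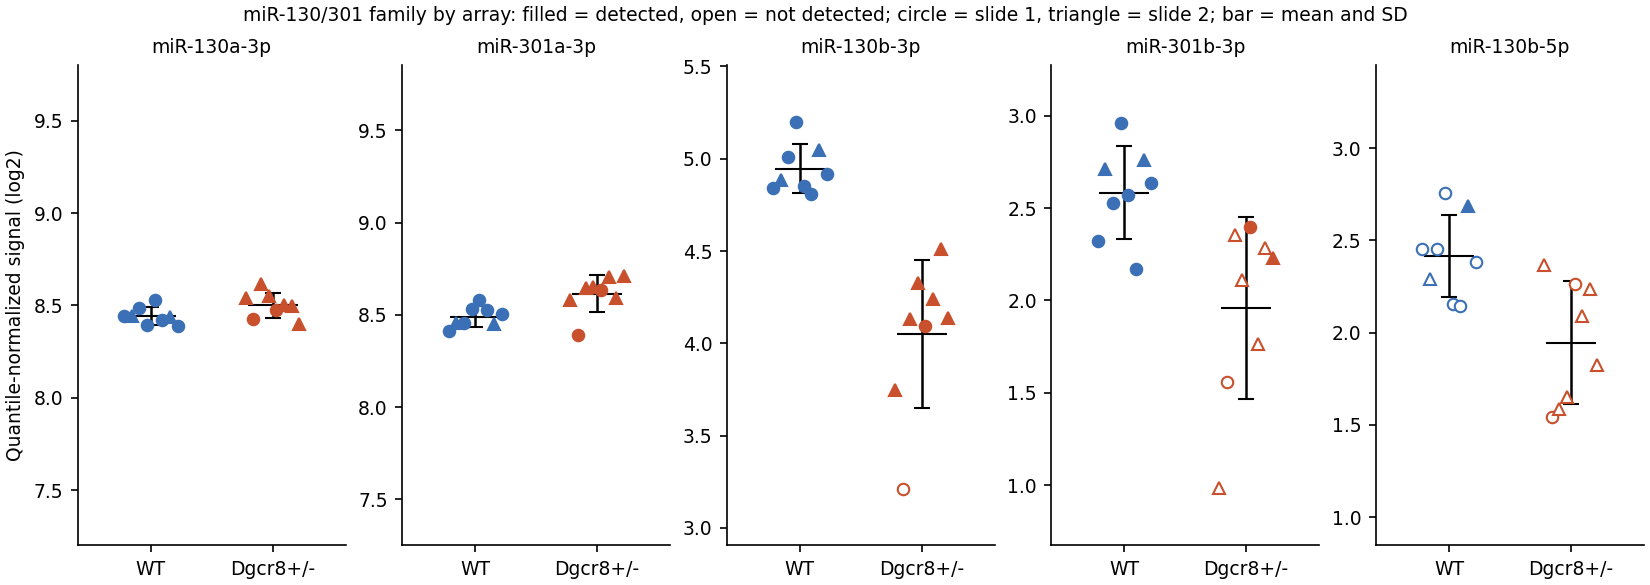
Quantile-normalized log2 signal of the 5 members in each array (points), with the mean and SD of each genotype (bars). Filled points were detected and open points were not, circles are slide 1 and triangles slide 2, and each panel spans the same number of log2 units. The Dgcr8+/- values of miR-130b-3p, for whose reduction the family was chosen, lie between 3.21 and 4.51, all below the WT values. Those of miR-130a-3p overlap with WT.

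**Figure D2:**
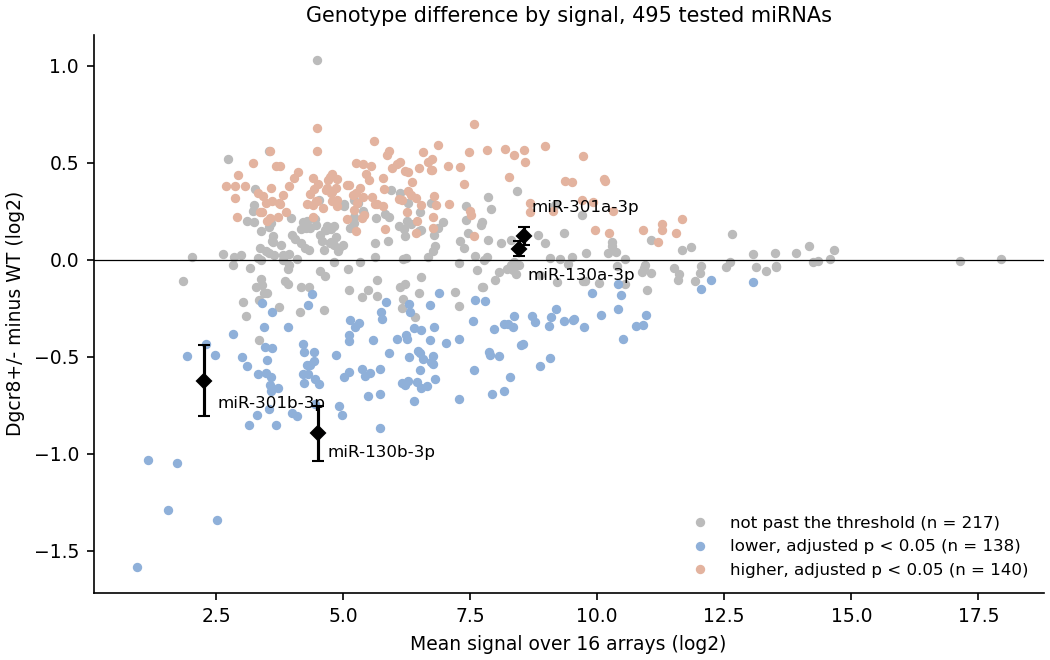
Dgcr8+/- minus WT difference (log2) against the mean signal over 16 arrays for the 495 miRNAs compared, with the 4 members as black diamonds with SE bars. MiR-130b-3p, for whose reduction the family was chosen, lies at the lower edge of the miRNAs of its brightness. The 9 other miRNAs near the brightness of miR-301b-3p had a lower quartile of -0.49, and 1 was at least as low as it. MiR-130a-3p and miR-301a-3p lie near 0.

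Each member was read by several probes, and on the log2 scale with the floor the probes of a member gave differences of the same sign. Both probes of miR-130b-3p gave nearly the same difference, -0.88 and -0.90. The 2 probes of miR-130a-3p gave 0.08 and 0.04, and those of miR-301a-3p gave 0.10 and 0.16. MiR-301b-3p had 4 probes, of which 2 were at the floor of 1 signal unit on 15 and 12 of the 16 arrays. They differed by -0.06 and -0.22. Before the floor, the mean of the first was -1.09 units in WT and -0.99 units in Dgcr8+/- mice, so its sign rests on the floor. The other probes of miR-301b-3p differed by -0.55 and -0.40. None of the 4 probes was as low as the -0.62 of miR-301b-3p itself, for which probes were averaged before the floor and log2. The probes of miR-130b-5p ranged from -0.60 to -0.04.

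The difference between the 2 locus groups was then taken within each array, as the mean of miR-130b-3p and miR-301b-3p minus the mean of miR-130a-3p and miR-301a-3p. The level of this contrast has no meaning of its own, because probes differ in brightness. Its median was -4.68 in the WT arrays (lowest -4.99, highest -4.38) and -5.39 in the Dgcr8+/- arrays (lowest -6.19, highest -5.14). All 8 Dgcr8+/- values were below all 8 WT values. The family was chosen with the reduction of miR-130b-3p known, so this separation is a description and nothing is read from it. The means were -4.70 ± 0.19 (SD, n = 8) and -5.55 ± 0.37 (SD, n = 8), a difference of -0.85. With no normalization, or with either scaling by 1 factor per array, it was -0.69. Between genotypes the mean of the chromosome 16 pair differed by -0.76, and that of the other pair, which is subtracted, by 0.09. Within the chromosome 16 pair, miR-301b-3p was detected on 2 of the 8 Dgcr8+/- arrays. The contrast of the other Dgcr8+/- arrays thus rests in part on signals not above background. These include replicates 1 and 2, which had the lowest contrasts, -6.19 and -6.02. Taken singly, miR-130b-3p minus miR-130a-3p differed by -0.95 between genotypes, and miR-301b-3p minus miR-301a-3p by -0.75.

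**Figure D3:**
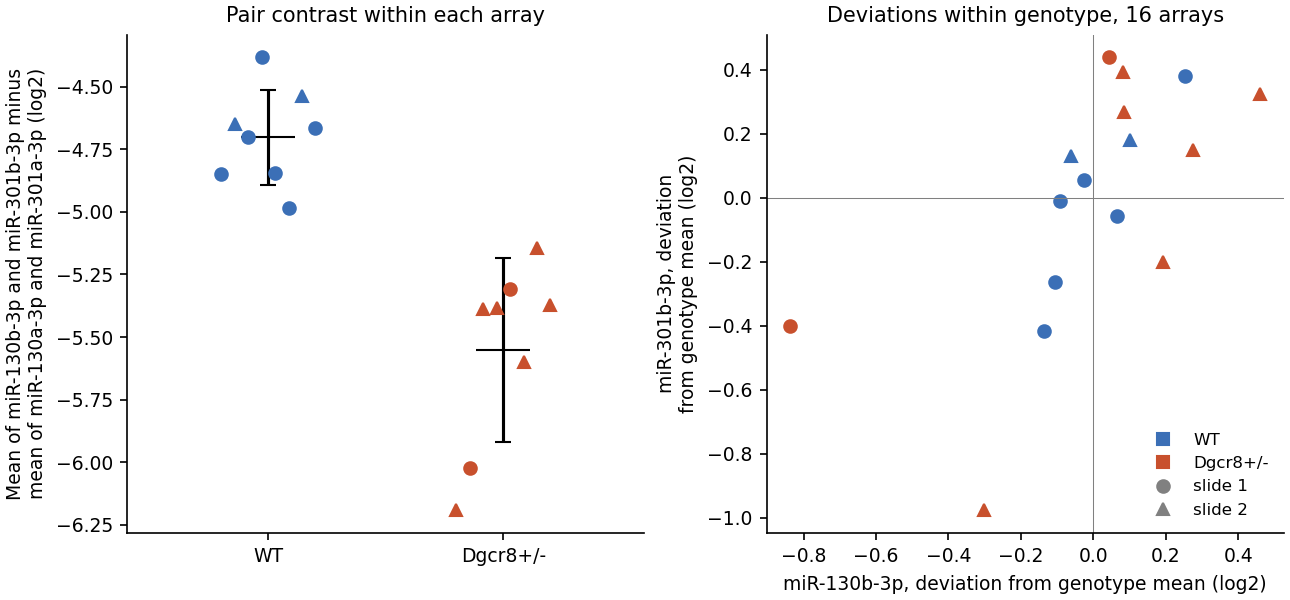
Left, the pair contrast (log2) of each array with the mean and SD of each genotype. Right, the deviation of miR-301b-3p from its genotype mean against that of miR-130b-3p in the 16 arrays. All 8 Dgcr8+/- contrasts, from -6.19 to -5.14, lie below the WT contrasts, and the deviations of the pair had r = 0.64. The contrast includes miR-130b-3p, for whose reduction the family was chosen. MiR-301b-3p, used in both panels, was detected on 2 of the 8 Dgcr8+/- arrays.

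The arrays came from 2 slides, with 6 WT and 2 Dgcr8+/- mice on slide 1 and 2 WT and 6 Dgcr8+/- mice on slide 2. The difference of miR-130b-3p was -1.28 on slide 1, where 1 of the Dgcr8+/- arrays was replicate 2, and -0.78 on slide 2, and that of miR-301b-3p was -0.55 and -0.78. For miR-130a-3p it was 0.0069 and 0.08, and for miR-301a-3p it was 0.01 and 0.19. The pair contrast was -0.93 on slide 1 and -0.92 on slide 2. With the slide as a block the differences were -1.03 for miR-130b-3p, -0.67 for miR-301b-3p, 0.04 for miR-130a-3p and 0.10 for miR-301a-3p, which was then no longer called higher. The slide itself, which the choice of the family did not use, had no member past the threshold in limma. Its coefficient was 0.28 for miR-130b-3p (SE 0.15, adjusted p = 0.361) and between 0.03 and 0.09 for the other members compared (adjusted p of 0.704 to 0.834), against 18 of 495 miRNAs called for the slide.

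The variation among mice of the same genotype, which the choice of the family did not use, was taken to ask which members varied together. Deviations from the genotype means were correlated over the 16 arrays for the 6 pairs of compared members. MiR-130b-3p and miR-301b-3p had r = 0.64 (permutation p = 0.0406, adjusted p = 0.141) and Spearman's rho = 0.68 (permutation p = 0.0088, adjusted p = 0.0528). Without the 2 arrays farthest from the median the r was 0.72, and it was 0.81 within WT and 0.62 within Dgcr8+/- mice, where miR-301b-3p was detected on 2 of 8 arrays. MiR-301b-3p met the detection filter through the 8 WT arrays alone. Its deviations in Dgcr8+/- mice rest mostly on signals not above background, so nothing is read from its p-values. MiR-130b-3p and miR-301a-3p had a similar r of 0.66 (permutation p = 0.0468, adjusted p = 0.141). Its rho was 0.40 (permutation p = 0.123, adjusted p = 0.369). That relation was 0.35 without the 2 arrays farthest from the median, 0.01 within WT mice and 0.10 without Dgcr8+/- replicate 2, and thus rested on 1 array. MiR-130a-3p had r = 0.20 with miR-130b-3p (adjusted permutation p = 0.658) and r = 0.21 with miR-301a-3p. No pair passed the adjusted threshold. These values depend on the scaling. Without normalization between arrays the r of the 6 pairs was between 0.78 and 0.95, with 0.90 for miR-130a-3p and miR-130b-3p and 0.83 for miR-130b-3p and miR-301b-3p.

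Over all 495 miRNAs the deviations most like those of miR-130b-3p were those of miR-6540-5p (r = 0.92), miR-505-5p (r = 0.92), miR-376c-3p (r = 0.91), miR-154-5p (r = 0.89) and miR-135b-5p (r = 0.88), against a median r of 0.16 over all miRNAs. Without Dgcr8+/- replicate 2 these fell to between 0.67 and 0.80. MiR-6540-5p was detected on 8 WT and 0 Dgcr8+/- arrays, and miR-505-5p on 8 and 3. Their deviations in Dgcr8+/- mice thus rest wholly or mostly on signals not above background. The arrays share dye labelling and normalization, and these r values are a description. Dgcr8+/- replicate 2 had the lowest hybridization spike-in signal of the 16 arrays, 13.7 against at least 14.9 in the others on the log2 scale, and the fewest detected miRNAs of all, 467. The part of these measures in the low miR-130b-3p value of that array was not tested.

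Besides the members, the miRNAs on the array whose RefSeq sequence has the AGUGCAA seed were miR-721, miR-130c, miR-6341 and miR-6389, and none was detected widely enough to be compared. MiR-721 was detected on 1 Dgcr8+/- array, and the other 3 on none. The opposite arms miR-130a-5p, miR-301a-5p and miR-301b-5p were detected on 0 of the 16 arrays.

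The miR-19 and miR-148 families have seeds that overlap with this one when shifted by a single base. Of 5 such miRNAs, 1 was lower and 0 higher, against 27.9% and 28.3% of all miRNAs compared. MiR-148b-3p fell by 0.41 on the log2 scale (limma adjusted p = 4.48e-05), whereas miR-19a-3p at -0.19, miR-19b-3p at 0.13, miR-148a-3p at -0.14 and miR-152-3p at -0.19 did not pass the threshold. Their median was -0.19, against 0.04 over all 495 miRNAs.

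Among 4 miRNAs encoded at or near Dgcr8 on chromosome 16, only miR-185-5p was detected widely enough to be compared. Its signal was 8.12 ± 0.07 (SD, n = 8) in WT and 7.64 ± 0.13 (SD, n = 8) in Dgcr8+/- mice, a difference of -0.47 (limma adjusted p = 2.89e-06). MiR-185-3p and miR-1306-5p were detected on 0 arrays and miR-1306-3p on 1.

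Because the tissue is mixed, miRNAs known from its cell types were counted beside the family. The counts are to be read against the 27.9% lower and 28.3% higher over all 495 miRNAs. Neuronal miRNAs (miR-124-3p, miR-128-3p and miR-138-5p) and oligodendrocyte miRNAs were detected on all arrays, with 1 of 3 neuronal miRNAs lower (miR-128-3p) and 1 higher (miR-138-5p), and 1 of 3 oligodendrocyte miRNAs higher (miR-219a-2-3p). Their summed linear signals were 29033 to 32070 (neuronal) and 8007 to 12063 units (oligodendrocyte) in WT and 29597 to 33265 and 8173 to 11305 units in Dgcr8+/- mice. The oligodendrocyte miRNAs miR-219a-5p at 0.13 and miR-338-3p at -0.11 were not called. Of 7 miRNAs of ciliated cells, 5 were compared and 0 passed the threshold in either direction, with a summed linear signal of 543 to 1288 units in WT and 870 to 1570 units in Dgcr8+/- mice, while miR-449b and miR-449c-5p were not detected. Of 4 miRNAs of endothelium and vessel wall, tissue where the miR-130/miR-301 family is known to be active, 2 were higher (miR-126a-5p and miR-143-3p) and 0 lower, with sums of 1646 to 1815 units in WT and 1588 to 1927 units in Dgcr8+/- mice. MiR-126a-3p at 0.0036 and miR-145a-5p at 0.16 were not called. Of 2 choroid plexus miRNAs 1 was lower, miR-204-5p at -0.29, with sums of 533 to 733 and 403 to 624 units. The other, miR-211-5p, was at 0.0021 and not called. Of 4 microglial and immune miRNAs 1 was lower, miR-142a-5p at -0.23, with sums of 193 to 241 and 171 to 222 units. MiR-142a-3p at -0.17, miR-223-3p at -0.14 and miR-146a-5p at 0.0074 were not called. Of 3 red blood cell miRNAs 1 was lower, miR-486a-5p at -0.66, with sums of 531 to 889 and 467 to 725 units. MiR-486a-5p was detected on 8 WT but 3 Dgcr8+/- arrays. MiR-144-3p at -0.15 and miR-451a at -0.12 were detected on all arrays and not called. Without normalization between arrays the miRNAs called higher here turned negative, at -0.35 for miR-126a-5p, -0.25 for miR-143-3p, -0.32 for miR-138-5p and -0.26 for miR-219a-2-3p. The part of these cell types in the family's values was not tested.

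The arrays as a whole differed between genotypes before normalization. The number of detected miRNAs was 495 to 540 in WT and 467 to 492 in Dgcr8+/- mice, and the summed miRNA signal was 21545358 to 29763412 and 18528866 to 23440575 units. Without normalization between arrays all 4 compared members were lower, by -1.25 for miR-130b-3p, -1.02 for miR-301b-3p, -0.49 for miR-130a-3p and -0.41 for miR-301a-3p, and the median of all 495 miRNAs was -0.39. Relative to that median, the differences were -0.86, -0.63, -0.10 and -0.02. The direction given for miR-130a-3p and miR-301a-3p thus depends on the scaling, whereas that of miR-130b-3p and miR-301b-3p was the same under every alternative run. Their size was not. With normexp background correction of the median spot signal it was -0.23 for miR-130b-3p and -0.04 for miR-301b-3p. That setting added an offset of 50 units, more than the linear median of miR-130b-3p in WT (29.9 units). Such an offset by itself shrinks the log2 differences of dim miRNAs, so these 2 sizes are not comparable with the others. With the scanner's total gene signal the difference was -1.32 for miR-130b-3p, while miR-301b-3p was no longer called lower. MiR-301b-3p was -0.41 with a floor of 4 signal units, -0.40 with the brightest probe and -0.38 with the median over probes.

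**Figure D4:**
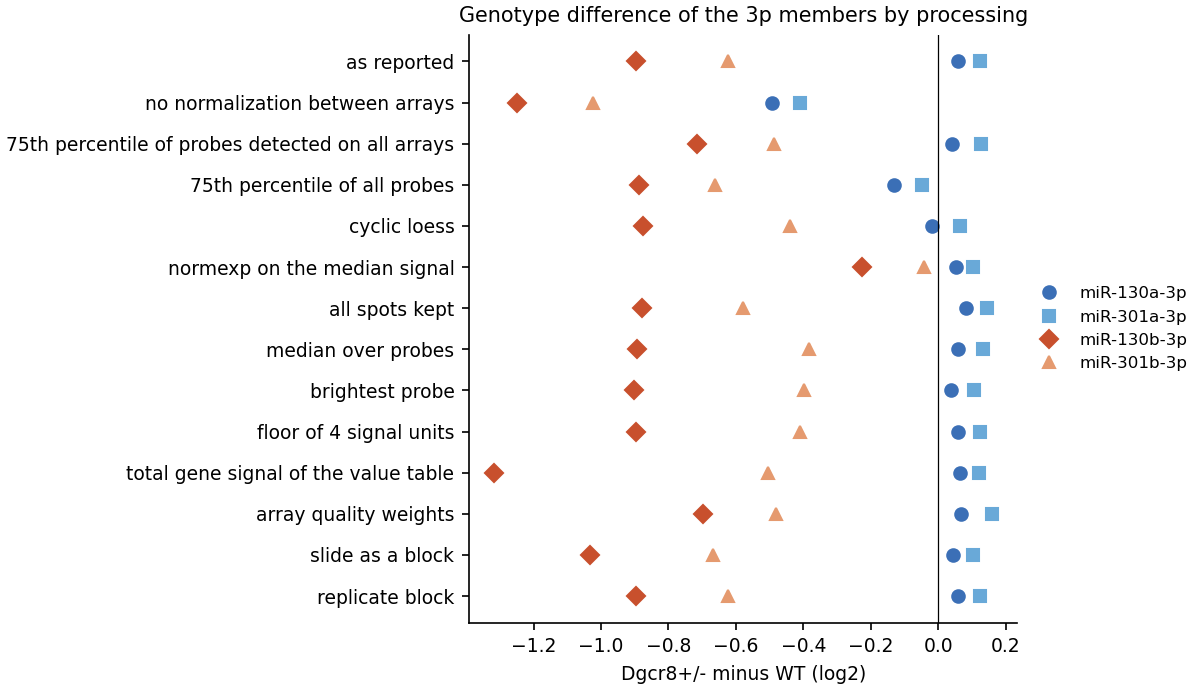
Dgcr8+/- minus WT difference (log2) of the 4 compared members as reported and under 13 processing alternatives. MiR-130b-3p and miR-301b-3p lie below 0 in each, from -1.32 to -0.23 and from -1.02 to -0.04. The values of -0.23 and -0.04 are from normexp with an offset of 50 units, which shrinks log2 differences of dim miRNAs. MiR-130a-3p and miR-301a-3p lie on both sides of 0.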

How the data were processed

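Each of the 16 arrays held 1 mouse, and groups were taken from the genotype in the labels. The authors labelled total RNA with Cy3 and hybridized it to Agilent mouse miRNA arrays. They deposited 1-colour scanner files whose processed signal is a background-corrected intensity per spot, not normalized between arrays (Feature Extraction 10.7.3.1 by the file headers, 10.5.1.1 by the labels). The deposited value table equals the scanner's total gene signal.

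Outlier spots (2.67%) were dropped, spots were averaged to 4415 probes, probes were quantile-normalized, as the study's methods did, and averaged per miRNA. A floor of 1 unit was set and log2 taken. MiRNAs detected on at least 8 of 16 arrays were compared with limma 3.58.1 in R 4.3.3 (2-sided, Benjamini-Hochberg adjustment). Correlations used 100000 permutations (2-sided). The number of arrays and the signal above background limit the precision. No depth applies to arrays. No spot was saturated. Scripts were tested on simulated data.

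Members and lists were chosen with earlier results of these data known. Named miRNAs were the 5 members, their other arms, miRNAs sharing the seed, 5 of related seed, 4 near Dgcr8, the 5 with deviations most like miR-130b-3p and its neighbours in rank. The cell-type lists were ciliated cells, endothelium and vessel wall, choroid plexus, neurons, oligodendrocytes, microglia and immune cells, and red blood cells. Members of these lists were named in addition where a count rested on them, or beside such a member. Alternatives covered normalization, background correction, floor, filter, probe summary, slide, the replicate block, array weights, the methods' t-test and leaving out each array. Host genes and sequences came from RefSeq.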

Additional observations from a re-analysis of the deposited data

Results flagged for a closer look

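MiR-301a-3p in Dgcr8+/- replicate 2 was 8.39, below the other 7 Dgcr8+/- values of 8.58 to 8.71. The gap was 0.582 of the range of the group, above Dixon's critical value for 8 samples at 95%. In all, 12 groups were examined, and chance alone would give 0.6 such values.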

How the results depend on the processing

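The numbers of miRNAs lower and higher (138 and 140) were 293 and 0 without normalization between arrays, where limma gave 0 and the methods' t-test 2 miRNAs higher at an unadjusted p below 0.05. With scaling to the 75th percentile of detected probes they were 126 and 210, a lower share of 37.5% of calls against 49.6%. MiR-130a-3p turned to -0.49 and miR-301a-3p to -0.41 without normalization, to -0.13 and -0.048 with the 75th percentile of all probes, and miR-130a-3p to -0.020 with cyclic loess. MiR-301b-3p was not called with the total gene signal. With normexp on the median signal the pair contrast was -0.21, miR-130b-3p -0.23 and miR-301b-3p -0.042. That setting added an offset of 50 units, which by arithmetic shrinks log2 differences of dim miRNAs. Beyond this arithmetic, the causes were not tested. Leaving out 1 array gave 133 to 150 lower and 126 to 170 higher miRNAs and a pair contrast of -0.91 to -0.76. Differences were then 0.04 to 0.07 for miR-130a-3p, -0.96 to -0.78 for miR-130b-3p, 0.11 to 0.16 for miR-301a-3p and -0.69 to -0.48 for miR-301b-3p. The replicate block gave 140 lower, 147 higher and a pair contrast of -0.85, and same-numbered arrays correlated from -0.14 to 0.50, over 0.1 in 5 of 8 pairs. Of 16 arrays, 5 correlated best with their own number. The design gives no pairs, and whether the numbers mark pairs was not tested. MiR-301b-3p and miR-130b-5p were near background, so their differences are imprecise.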
